A study of Homo sapiens with 6 samples.

Results

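FTH1 and FTL encode the heavy and light subunits of ferritin, the protein cage that stores iron in the cell, and TFRC encodes the transferrin receptor, which takes up iron bound to transferrin. They were chosen by name from the deposited count table as the protein-coding rows FTH1, FTL and TFRC, which are 3 of 60648 gene rows and 3 of 19954 protein-coding rows. The libraries came from A549 cells, an established human line of non-small cell lung cancer, carrying either a control shRNA or an shRNA against METTL16, an RNA methyltransferase. The 3 conditions were control shRNA cells starved of amino acids for 2 hours (starved control cells), METTL16 shRNA cells starved in the same way (starved knockdown cells) and METTL16 shRNA cells kept in complete medium (fed knockdown cells). All cells were treated with cycloheximide, which halts elongating ribosomes, for 5 minutes before lysis. Each condition had 1 input RNA library and 1 library of ribosome footprints, the stretches of mRNA that ribosomes protect from nuclease. A fed control was not analysed here, and the labels do not say whether the stable lines were clones or pools.

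Iron-responsive elements are short hairpins in these mRNAs that bind the iron regulatory proteins IRP1 and IRP2 when iron is scarce. In ferritin mRNAs the hairpin lies in the untranslated leader, where a bound regulatory protein keeps ribosomes from initiating. In TFRC mRNA several such hairpins lie in the untranslated region after the stop codon, where bound regulatory proteins protect the mRNA from decay. Ferritin production and transferrin receptor abundance are therefore controlled in opposite directions by iron, the first mainly at translation and the second mainly through mRNA stability.

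The ferritin light chain hairpin is shown because the low ribosome occupancy of the ferritin mRNAs is the main pattern described below. Whether the hairpin has a part in that occupancy was not tested. The hairpin was found in the RefSeq window around the FTL start (GRCh38.p14, plus strand, chr19:48965329-48965358, bases 21 to 50 after the start of the gene, in the untranslated leader), with the 6 loop bases in capitals. The printed stretch begins before the matched part and is cut at base 50, where the window ends. Any bases of the stem beyond that point are not shown.
FTL hairpin: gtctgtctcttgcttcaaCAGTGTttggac
The search pattern was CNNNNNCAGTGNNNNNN, where the loop CAGTGN must not end in G and at least 4 of the 5 base pairs flanking the loop must be able to form. In the FTL hairpin 5 of 5 pairs could form, with the loop at bases 39 to 44 after the start. Of 35116 RefSeq windows, each with 250 bases before and 50 bases after a start, 0.567% held a match on the transcript strand and 0.521% on the other strand, and 0.0683% held one wholly within the 50 bases after the start. The loop letters alone stood in 24% of the windows. The RefSeq table was matched by symbol for FTL and TFRC. FTH1 had no window there, so its leader was not searched. The TFRC window held no match on either strand, and this window does not reach the region after the stop codon.

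FTH1 (ENSG00000167996.16) lies on chromosome 11 at 61964285 to 61967634, FTL (ENSG00000087086.15) on chromosome 19 at 48965309 to 48966879, and TFRC (ENSG00000072274.13) on chromosome 3 at 196049284 to 196082090, by RefSeq coordinates on GRCh38.p14. The gene lengths in the deposited table were 2004 bases for FTH1, 871 for FTL and 7794 for TFRC. Total counts ranged from 465303 to 775676 in the input libraries and from 518955 to 781831 in the footprint libraries. METTL16 itself had 44 input reads in starved control cells, 9 in starved knockdown cells and 19 in fed knockdown cells, and 60, 3 and 7 footprint reads in the same order, so the knockdown labels and the target's counts go the same way. All 6 epithelial markers had reads in some library, 1668 to 2931 together per library with a summed TPM of 325 to 1214. Most of these reads were on KRT7, KRT8 and KRT18. CDH1 had 47 to 293 reads per library, KRT19 5 to 28 and EPCAM 0 to 15. Of 5 fibroblast markers 3 had reads, 1 to 32 together per library with a summed TPM of 0.183 to 3.84. The 6 leukocyte and macrophage markers and the 5 erythroid markers had no read in any library. With 1 library per group there is no replicate spread and no test. The 95% intervals given here cover counting error only, and reads copied by PCR and not marked by molecular identifiers need not be separate molecules.

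FTL was among the most abundant mRNAs of these cells. Its input counts were 5808 in starved control cells, 3220 in starved knockdown cells and 3729 in fed knockdown cells. These were 1.08% (1.05 to 1.11), 0.692% (0.668 to 0.716) and 0.481% (0.465 to 0.496) of the counts of their libraries (exact Clopper-Pearson intervals). By TPM, which is scaled to gene length and can be compared between genes, FTL stood at 17588.5, 8809 and 7053, which ranked 5, 10 and 11 among protein-coding genes. Scaled to library size with TMM factors (TMM-scaled CPM, called CPM from here on), the FTL input level was 10166 (9906 to 10431) in starved control cells, 7099 (6856 to 7348) in starved knockdown cells and 4981 (4822 to 5143) in fed knockdown cells, with no overlap between the intervals.

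FTH1 followed the same order in input RNA. Its counts were 760 in starved control cells, 347 in starved knockdown cells and 407 in fed knockdown cells, or 1000 (TPM), 413 and 335, ranking 30, 50 and 68 among protein-coding genes. The CPM values were 1330 (1237 to 1428), 765 (687 to 850) and 544 (492 to 599), again without overlap. In input reads per gene length FTL exceeded FTH1 by 17.6-fold (16.3 to 19.0), 21.4-fold (19.1 to 23.8) and 21.1-fold (19.0 to 23.4) in the 3 conditions. These ratios rest on the gene lengths of the deposited table and on the reads assigned to each gene. Reads that FTH1 shares with its pseudogenes, described below, could change them by an unknown amount.

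TFRC input RNA was highest in fed knockdown cells. Its input counts were 276, 269 and 575 in starved control cells, starved knockdown cells and fed knockdown cells, or 93.4, 82.2 and 122 TPM. The CPM values were 483 (428 to 544), 593 (524 to 668) and 768 (706 to 833). The level in complete medium was above both starved levels, whose intervals overlapped each other and whose order differs between TPM and CPM.

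**Figure D1:**
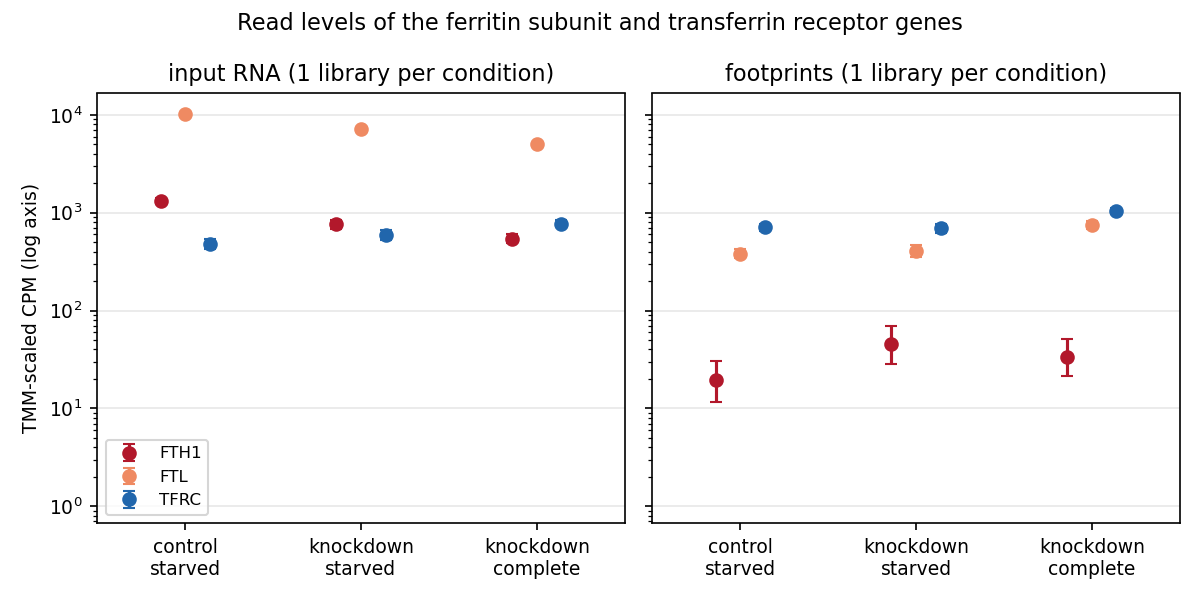
Read levels of FTH1, FTL and TFRC in TMM-scaled CPM (log axis) in the input RNA libraries (left) and footprint libraries (right), 1 library per condition, with 95% counting intervals. CPM is not scaled to gene length, so each gene is to be read across conditions: FTL input is at 10166, 7099 and 4981 from left to right and TFRC input at 483, 593 and 768, and FTH1 footprints stay between 19.5 and 45.7.

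The footprint libraries showed another picture for ferritin. FTL had 353 footprint reads in starved control cells, 196 in starved knockdown cells and 489 in fed knockdown cells, with CPM values of 382 (343 to 424), 407 (352 to 469) and 752 (687 to 822). In CPM the level in complete medium was separate from both starved levels, and the starved levels overlapped. In TPM FTL footprints were at 374 (336 to 415), 191 (165 to 220) and 428 (391 to 467). There the starved levels were apart, and complete medium overlapped starved control cells. FTH1 had 18, 22 and 22 footprint reads, with CPM values of 19.5 (11.6 to 30.8), 45.7 (28.7 to 69.2) and 33.9 (21.2 to 51.3). These intervals overlapped throughout, although with TMM scaling the ratio of the starved levels, given below, had an interval that excluded 0. TFRC had 653, 333 and 673 footprint reads, with CPM values of 707 (654 to 763), 692 (620 to 771) and 1036 (959 to 1117). In CPM its level in complete medium was above the overlapping starved levels, but this depends on the scaling. As a share of library counts TFRC was at 0.0835% (0.0772 to 0.0902), 0.0642% (0.0575 to 0.0714) and 0.0946% (0.0875 to 0.102). The starved levels were then apart, and complete medium overlapped starved control cells. In TPM it was at 77.3, 36.3 and 65.8, highest in starved control cells. FTH1 missed the minimum of a mean of 30 reads over the 3 footprint libraries, so that all 3 genes passed it in input RNA and 2 of 3 passed it in footprints and in the footprint over input ratio.

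Set against each other per length, FTL exceeded TFRC in input TPM by 188-fold (167 to 212) in starved control cells, 107-fold (94.6 to 121) in starved knockdown cells and 58.0-fold (53.2 to 63.4) in fed knockdown cells. In footprint TPM the same ratios were 4.84 (4.25 to 5.51), 5.27 (4.42 to 6.28) and 6.50 (5.79 to 7.30). The gap between FTL and TFRC was thus wider in input RNA than in footprints in all 3 conditions. FTH1 exceeded TFRC in input TPM by 10.7-fold (9.33 to 12.3), 5.02-fold (4.28 to 5.88) and 2.75-fold (2.42 to 3.13), whereas in footprint TPM it was at 0.107 (0.0675 to 0.170), 0.257 (0.168 to 0.394) and 0.127 (0.0835 to 0.194) of TFRC. By footprint TPM, FTL ranked 62, 51 and 26 among protein-coding genes and TFRC 379, 388 and 247. FTH1 ranked 3157, 1541 and 1930, but these ranks rest on 18, 22 and 22 reads. Its footprint TPM was 8.29 (4.91 to 13.1), 9.32 (5.84 to 14.1) and 8.36 (5.24 to 12.7), so the differences in rank are not to be read as differences in level.

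Translation efficiency, the ratio of footprints to input RNA, was low for both ferritin mRNAs. In the authors' deposited table it was 0.0213 for FTL in starved control cells, 0.0217 in starved knockdown cells and 0.0606 in fed knockdown cells. The authors' deposited table gave 0.00829, 0.0226 and 0.0250 for FTH1. For TFRC the authors' deposited table gave 0.828, 0.441 and 0.541. Input reads come from whole transcripts and footprints mainly from coding sequence, so a level compared between genes also holds the coding share of each transcript, which was not measured here.

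Recomputed from the counts and set against the median of 2866 genes with enough reads, the log2 translation efficiency level of FTL was −4.67 (−4.83 to −4.52) in starved control cells, −4.03 (−4.24 to −3.83) in starved knockdown cells and −2.63 (−2.77 to −2.49) in fed knockdown cells. These levels lie 25.5-fold, 16.4-fold and 6.19-fold below the median gene, and only 2, 4 and 10 of the 2866 genes were lower. The central 95% of genes lay between −2.05 and 1.44, −1.97 and 1.56, and −1.73 and 1.26 in the same conditions, so FTL was below that range in each. The genes lower than FTL in starved control cells were RN7SL1, a noncoding RNA of the signal recognition particle, and PABPC1, the poly(A)-binding protein. In starved knockdown cells they were RN7SL1, PABPC1, RPS12 and RPS2, the latter pair being ribosomal proteins. In complete medium they were RN7SL1, VTRNA1-1, VTRNA1-2, CXCL5, MAP1LC3B, LPGAT1, HIPK2, CTSD, FAM107B and IRAK1.

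FTH1, from its own reads alone, had a log2 level of −6.00 (−6.66 to −5.33) in starved control cells, −3.95 (−4.56 to −3.33) in starved knockdown cells and −3.88 (−4.49 to −3.27) in fed knockdown cells, or 63.8-fold, 15.4-fold and 14.7-fold below the median gene. Only 1, 6 and 2 of the 2866 genes were lower. By these reads the ferritin chains overlapped in starved knockdown cells and FTH1 was the lower one in the remaining conditions, an order that does not hold with pseudogene reads added, as given below. TFRC was above the median gene in each condition, at 0.61 (0.40 to 0.81), 0.31 (0.08 to 0.54) and 0.53 (0.37 to 0.69), levels whose intervals overlapped and which lay inside the central 95% of genes.

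The low occupancy of FTL was also set beside that of abundant short mRNAs. The 68 measured cytosolic ribosomal protein mRNAs had median log2 levels of −1.59 in starved control cells, −1.73 in starved knockdown cells and −0.14 in fed knockdown cells, and 0, 2 and 0 of them were lower than FTL. Targets of NRF2, the oxidative stress factor that is known to raise transcription of both ferritin genes, had median levels of 0.44, 0.22 and 0.53. In every condition 0 of 23 were lower than FTL or FTH1. Of all 2866 genes only 2, 4 and 10 were lower than FTL and 1, 6 and 2 lower than FTH1. The count of 0 therefore does not set the NRF2 targets apart from other genes.

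**Figure D2:**
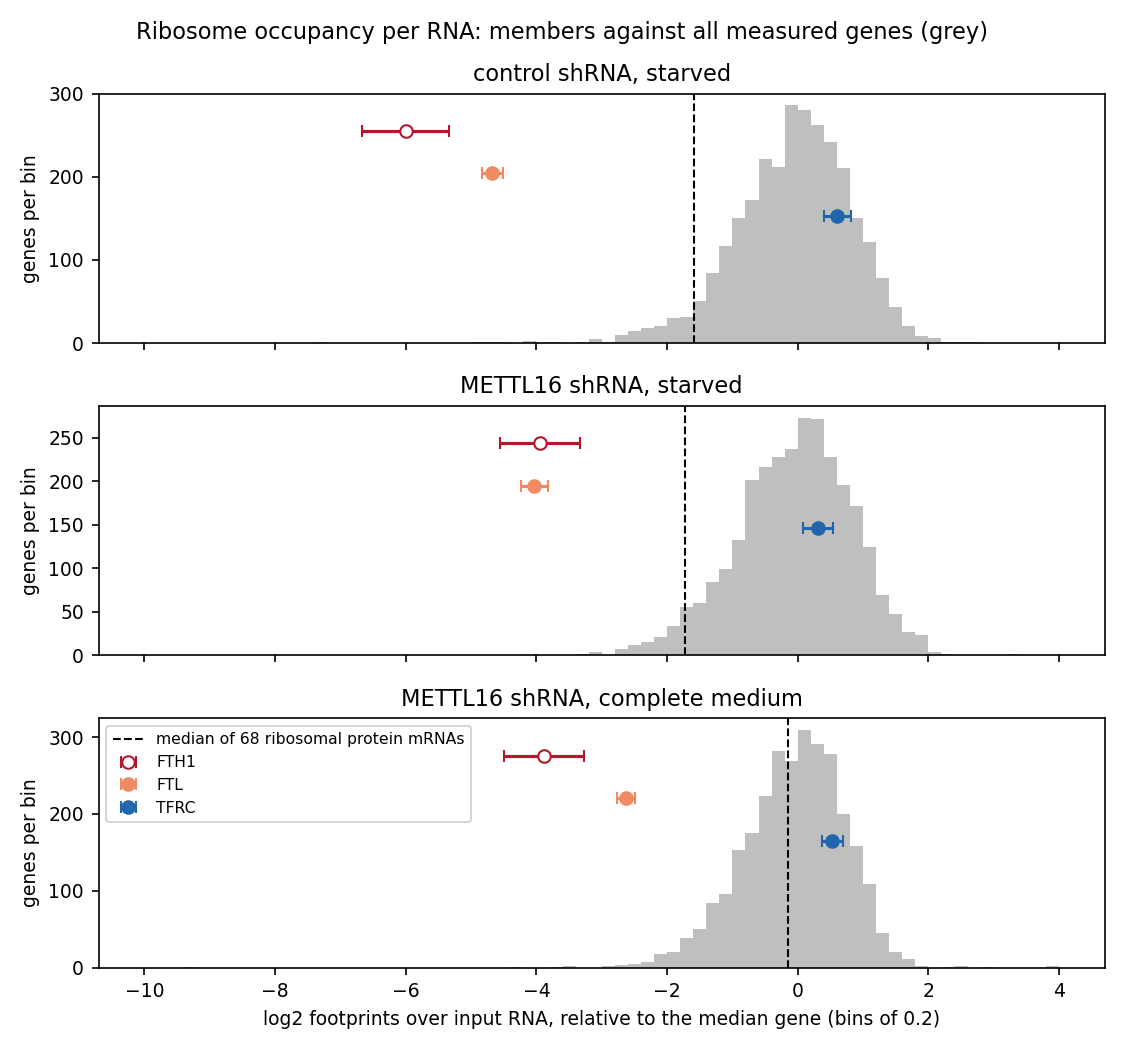
Log2 footprints over input RNA relative to the median gene (x axis) for 2866 genes (grey histogram, bins of 0.2) in each condition, with FTH1, FTL and TFRC as points with 95% counting intervals; their height has no meaning, the open point is under the read minimum, and the dashed line is the median of 68 ribosomal protein mRNAs. FTL lies at −4.67 in starved control cells and −2.63 in complete medium, left of the bulk in each panel, and TFRC lies within it at 0.31 to 0.61.

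Ferritin genes have many processed pseudogenes of near-identical sequence, and how reads that map to several places were counted is not given in the sources used here. The table held 25 FTH1 pseudogene rows, 15 with a read in some library, and 16 FTL pseudogene rows, 4 with a read, while TFRC had none. Reads on the FTH1 pseudogene rows came to 49, 20 and 33 in input RNA, or 6.45%, 5.76% and 8.11% of the reads on FTH1, but to 25, 16 and 20 in footprints, or 139%, 72.7% and 90.9% of them. For FTL they came to 32, 20 and 48 input reads (0.551%, 0.621% and 1.29% of those on FTL) and 6, 3 and 11 footprint reads (1.70%, 1.53% and 2.25%). FTH1 footprint values are therefore uncertain, while the FTL pseudogene rows held few reads beside those of FTL. Reads dropped for mapping to several places would stand on neither kind of row, and adding the pseudogene rows would not restore them. Such a loss could lower the footprint over input level of both ferritin genes, and it was not tested. With the pseudogene reads added, the FTH1 log2 levels were −4.85 (−5.29 to −4.41), −3.25 (−3.73 to −2.78) and −3.07 (−3.53 to −2.62), still below the central 95% of genes in each condition. FTL, treated in the same way, was at −4.66 (−4.81 to −4.50), −4.02 (−4.23 to −3.82) and −2.62 (−2.75 to −2.48). The chains then overlapped in starved control and fed knockdown cells and were apart in starved knockdown cells, with FTH1 the higher one, so these data give no settled order of the chains.

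**Figure D3:**
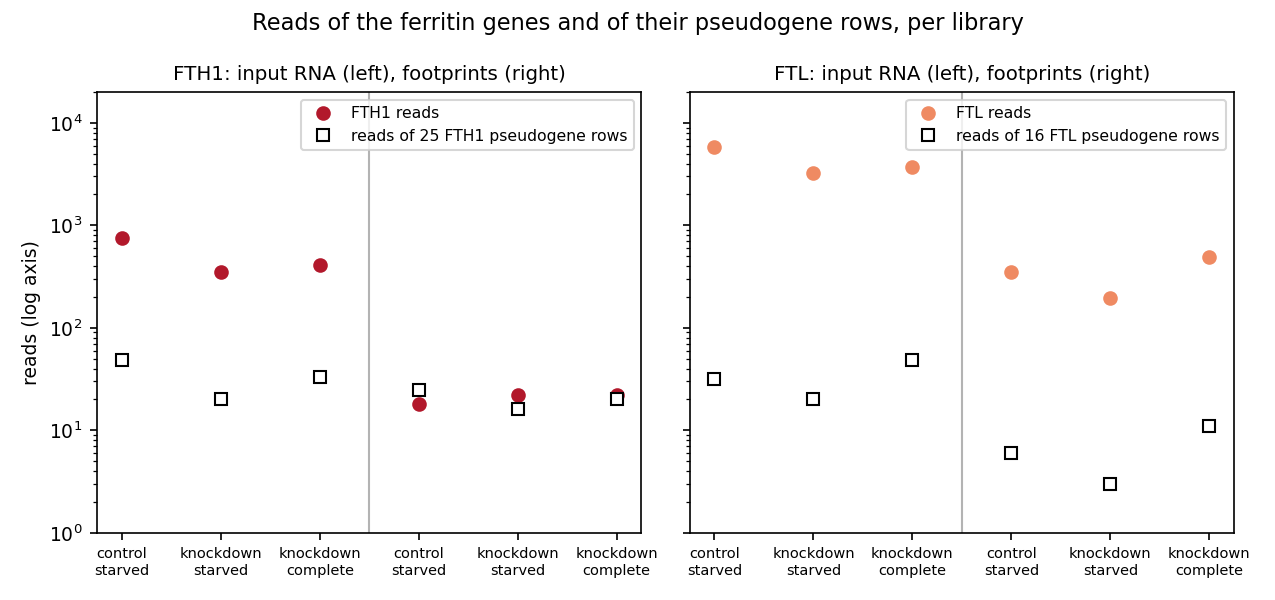
Reads on FTH1 (left panel) and FTL (right panel) as filled circles and reads summed over their pseudogene rows as open squares, per library, on a log axis; within a panel the 3 input libraries are on the left and the 3 footprint libraries on the right. In FTH1 footprints the squares (16 to 25 reads) sit at the circles (18 to 22 reads), and in FTL they lie far below.

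The first comparison set METTL16 knockdown cells against control cells, both under amino acid starvation. With 1 library of each line per assay, an effect of the knockdown cannot be told apart from other differences between the lines. In the knockdown both ferritin mRNAs were lower in input RNA, and TFRC had no direction that held under every scaling. The log2 ratio of knockdown to control was −0.80 (−0.99 to −0.61) for FTH1, −0.52 (−0.58 to −0.46) for FTL and 0.30 (0.05 to 0.54) for TFRC. None of the 3 reached the 2-fold required of a call, beside 9.6% of 3876 genes called in either direction (5.03% higher and 4.57% lower). With total counts TFRC was at 0.17 (−0.08 to 0.42), an interval that includes 0, and its TPM was lower in the knockdown (82.2) than in the control (93.4). The calls over all genes, 195 higher and 177 lower, were 133 and 236 with total counts. Of those genes, 293 were lower than FTH1, 613 lower than FTL and 2671 lower than TFRC. Differences between the genes do not depend on the scaling of the libraries: the FTL ratio minus the TFRC ratio was −0.81 (−1.06 to −0.56) on the log2 scale, FTH1 minus TFRC was −1.09 (−1.40 to −0.79), and FTH1 minus FTL was −0.28 (−0.47 to −0.09).

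With TMM scaling the lower FTL RNA was not matched by lower FTL footprints, but this depends on the scaling. The footprint log2 ratio of knockdown to control was 0.09 (−0.17 to 0.35) for FTL and −0.03 (−0.23 to 0.16) for TFRC, and 0 of these 2 genes were called, beside 7% of 3431 genes (3.96% higher and 3.03% lower). FTH1, from 18 and 22 reads, had a ratio of 1.22 (0.26 to 2.21), past 2-fold but under the read minimum, which became 0.76 (0.09 to 1.43) with pseudogene reads added. Scaling to total counts in place of TMM moved the median footprint ratio of all genes from 0.01 to −0.34, and then gave −0.26 (−0.52 to −0.0016) for FTL, −0.38 (−0.58 to −0.19) for TFRC and 0.87 (−0.09 to 1.86) for FTH1. The calls over all genes, 136 higher and 104 lower with TMM, were then 57 and 323, and with median-of-ratios size factors 116 and 134. Relative to TFRC, FTL footprints differed by 0.12 (−0.19 to 0.44), an interval that includes 0.

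With TMM scaling the translation efficiency of FTL was higher in the knockdown by 0.61 (0.35 to 0.87) on the log2 scale, and that of TFRC stood at −0.33 (−0.63 to −0.02). With total counts these were 0.39 (0.13 to 0.65) and −0.55 (−0.86 to −0.24), and the calls over all genes went from 140 higher and 157 lower to 71 and 314. In the authors' deposited table FTL was nearly level (0.0213 in the control and 0.0217 in the knockdown) and TFRC lower (0.828 and 0.441), so the scaling sets the size of each ratio. Neither was called, beside 10.4% of 2866 genes (4.88% higher and 5.48% lower), and 2455 genes were lower than FTL and 861 lower than TFRC. The FTL ratio minus the TFRC ratio, which the scaling does not touch, was 0.94 (0.53 to 1.34). FTH1 had a ratio of 2.02 (1.11 to 2.93), or 1.57 (0.92 to 2.22) with pseudogene reads added, but was under the read minimum. With the input library of fed knockdown cells in place of the starved one, FTL was at 1.12 and TFRC at −0.70. The median over 68 ribosomal protein mRNAs was −0.10 and over 23 NRF2 targets −0.24, beside −0.0037 for all genes. In input RNA the NRF2 targets had a median of 0.31, and 0 of 23 were lower than FTH1 or FTL, beside 293 and 613 of all 3876 genes. The highest of the NRF2 targets was EPHX1, an epoxide hydrolase, at 1.30 (0.92 to 1.70).

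The second comparison set starved against fed METTL16 knockdown cells. It shares the starved knockdown libraries with the first, so the comparisons are not independent of each other. In starved cells both ferritin mRNAs were higher in input RNA, with log2 ratios of 0.49 (0.28 to 0.70) for FTH1 and 0.51 (0.44 to 0.58) for FTL, and TFRC was lower at −0.37 (−0.59 to −0.16). None of the 3 reached 2-fold, beside 7.17% of 3876 genes called (3.02% higher and 4.15% lower). The FTH1 ratio minus the FTL ratio was −0.02 (−0.24 to 0.20), and FTL minus TFRC was 0.88 (0.66 to 1.10).

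Footprints of the light chain and of the receptor were both lower in starved cells. The footprint log2 ratio was −0.88 (−1.13 to −0.64) for FTL and −0.58 (−0.77 to −0.39) for TFRC, both short of 2-fold, beside 12.1% of 3431 genes called (5.39% higher and 6.73% lower). Of the 3431 genes, 299 were lower than FTL. FTH1, from 22 reads in each library, had a ratio of 0.43 (−0.49 to 1.35), so a difference was not detectable at this depth.

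Among values past the read minimum, FTL translation efficiency was the only 1 of the ferritin and receptor genes that met the call rule. It was −1.39 (−1.64 to −1.15) on the log2 scale in starved against fed cells, which made 1 of 2 measured members called lower, beside 9.56% of 2866 genes called lower and 6.91% called higher. In all, 133 of the 2866 genes were lower than FTL. TFRC stood at −0.21 (−0.49 to 0.07) and FTH1, under the read minimum, at −0.06 (−0.93 to 0.81). The FTL ratio minus the TFRC ratio was −1.19 (−1.56 to −0.81), and FTH1 minus FTL was 1.33 (0.43 to 2.24). Both parts of the ratio went into the FTL value, since input RNA was higher by 0.51 and the footprint ratio was −0.88. With the input library of fed knockdown cells used for both conditions the value is the footprint ratio of −0.88, which is under 2-fold and ends the call.

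**Figure D4:**
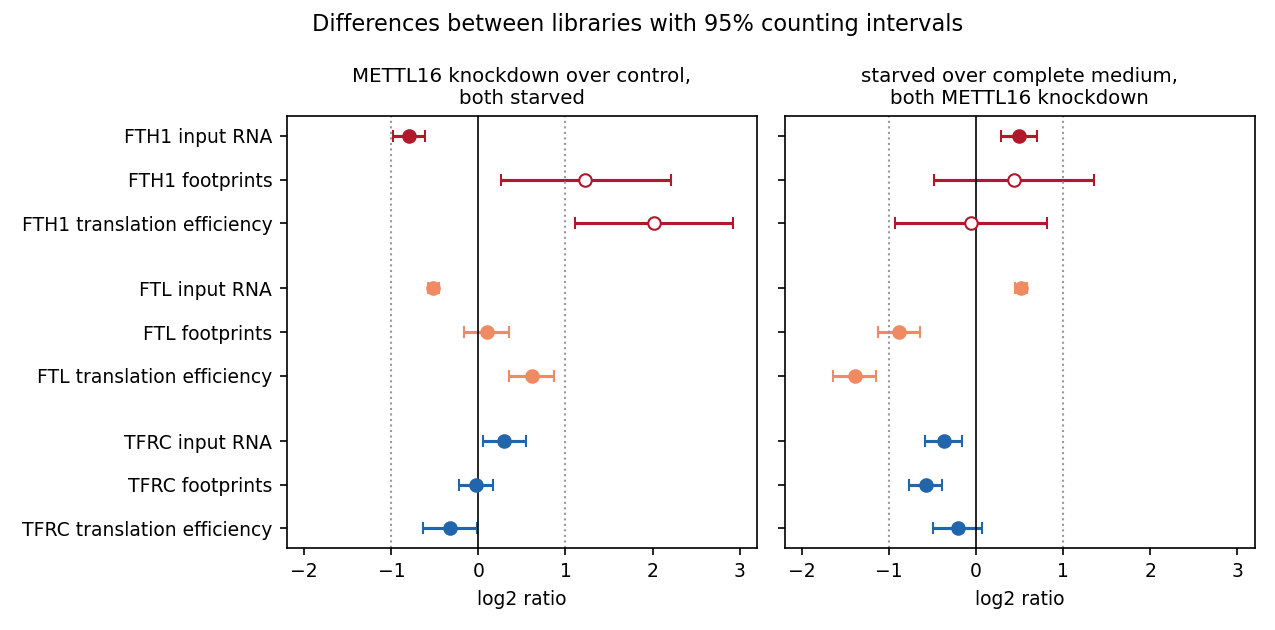
Log2 ratios of FTH1, FTL and TFRC in input RNA, footprints and translation efficiency for knockdown over control (both starved) and starved over complete medium (both knockdown), with 95% counting intervals; open points are under the read minimum. FTL translation efficiency is at 0.61 in the first comparison and −1.39 in the second, and FTH1 has the widest intervals.

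The leaders of most ribosomal protein mRNAs carry a terminal oligopyrimidine tract that makes their translation depend on amino acids. The list of these mRNAs was made by gene name and also holds paralogs such as RPS27L. The listed mRNAs were likewise lower in translation efficiency in this comparison. Their median log2 ratio in starved against fed cells was 0.33 in input RNA over 76 genes, −1.23 in footprints with 49 of 68 called lower, beside 6.73% of all genes, and −1.50 in translation efficiency with 53 of 68 called lower, beside 9.56%. The lowest was RPL7 at −3.24 (−3.95 to −2.53) and the highest RPS27L at −0.04 (−0.45 to 0.37). FTL at −1.39 lay inside the list, with 36 of the 68 lower and 32 higher. Among 23 NRF2 targets the median was −0.02, and 0 were lower than FTL, beside 133 of all 2866 genes. The lowest of the NRF2 targets was TKT, an enzyme of the pentose phosphate pathway, at −1.22 (−1.36 to −1.08). For the level itself the order was different, since FTL in complete medium was at −2.63 beside a ribosomal protein median of −0.14.

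Other mRNAs with iron-responsive elements gave few values, since 7 were listed and 3 were measured in input RNA and 2 in footprints and translation efficiency. SLC11A2, the metal transporter DMT1 with the hairpin after its stop codon, was the 1 called, with a footprint log2 ratio of 1.07 (0.51 to 1.62) in knockdown against control, beside 3.96% of all genes called higher. This call was made with TMM scaling. Total counts moved the median footprint ratio of all genes from 0.01 to −0.34, a shift that takes SLC11A2 under 2-fold. The translation efficiency of SLC11A2 stood at 0.69 (−0.14 to 1.53) in that comparison and 0.80 (0.06 to 1.53) in starved against fed cells. EPAS1, the hypoxia factor HIF-2 alpha with a leader hairpin like that of ferritin, had translation efficiency ratios of 0.02 (−0.46 to 0.49) and −0.48 (−0.97 to 0.01). With total counts the first of these was −0.21, so its direction depends on the scaling. The list medians were 0.35 and 0.16, beside −0.0037 and 0.06 for all genes.

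The iron regulatory proteins and the ubiquitin ligase that removes IRP2 in iron-replete cells had 6 listed members, of which 4 were measured by input reads, 5 by footprints and 3 by both. RBX1, a subunit of that ligase, was the 1 called, with footprints higher by 1.36 (0.65 to 2.13) in starved against fed cells, beside 5.39% of all genes. ACO1, which encodes IRP1, had the lowest translation efficiency ratio of the list in that comparison at −0.99 (−1.74 to −0.25), just short of 2-fold, and SKP1, another ligase subunit, the highest at 0.03 (−0.70 to 0.76). In knockdown against control IREB2, which encodes IRP2, was at 0.18 (−0.57 to 0.94), or −0.04 with total counts, and SKP1 at −0.61 (−1.34 to 0.12). The list medians were −0.27 in the first comparison and −0.09 in the second.

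Genes of iron uptake, storage, export and haem handling were 25, with 14 measured by input reads, 15 by footprints and 13 by both. In knockdown against control FLVCR1, a choline and haem transporter, had higher input RNA by 2.13 (1.29 to 3.14) and in footprints by 1.04 (0.48 to 1.61), with a translation efficiency of −1.09 (−2.09 to −0.09). LCN2, a siderophore-binding protein, was higher in input RNA by 1.24 (0.44 to 2.12) and in footprints by 1.51 (0.96 to 2.08). Calls in this list numbered 2 higher and 0 lower in input RNA, 3 higher and 0 lower in footprints, and for translation efficiency 0 higher and 2 lower. Over all genes 5.03% were called higher in input RNA, 3.96% higher in footprints and 5.48% lower in translation efficiency. CYBRD1, a ferric reductase, had the lowest translation efficiency ratio at −1.32 (−2.16 to −0.49) and SLC39A8, a zinc, manganese and iron importer, the highest at 0.94 (0.03 to 1.85), with called footprints at 1.20 (0.52 to 1.89). Total counts in place of TMM moved the median footprint ratio of all genes from 0.01 to −0.34. That shift takes the footprints of FLVCR1 and SLC39A8 under 2-fold but not those of LCN2.

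In starved against fed cells 0 of the 14 were called in input RNA, and 1 was called higher and 2 lower in footprints and in translation efficiency. The shares over all genes were 7.17% in input RNA in either direction, 5.39% higher and 6.73% lower in footprints, and 6.91% higher and 9.56% lower in translation efficiency. SLC39A8 was higher in footprints by 1.71 (0.90 to 2.64) and in translation efficiency by 1.73 (0.73 to 2.72). PCBP2, an RNA-binding protein that also delivers iron to ferritin, stood at −1.83 (−2.65 to −1.13) and −1.91 (−2.70 to −1.12), and CYBRD1 at −1.59 (−2.34 to −0.94) and −1.39 (−2.14 to −0.63). NCOA4, the receptor that carries ferritin to the lysosome for breakdown, had input RNA at 0.51 (0.07 to 0.95), close to the ferritin genes in this comparison only. Its translation efficiency was at −0.63 (−1.28 to 0.02), and it was not called. Between starved control and starved knockdown cells NCOA4 had 63 and 82 input reads, or 41.7 and 49.0 TPM. It was thus higher in the knockdown, where both ferritin genes were lower. The median translation efficiency ratio of the list was 0.19 in knockdown against control, or −0.04 with total counts, and 0.26 in starved against fed cells.

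Genes of haem synthesis and of iron-sulfur cluster assembly, the main users of cellular iron, were mostly below the read minimum. Of 8 haem synthesis genes 3 were measured in input RNA and in footprints and 2 in translation efficiency, and 0 were called. Over all genes 7% to 16.5% were called in either direction, depending on the comparison and measure. So few measured genes cannot tell 0 calls from those shares. In knockdown against control FECH, the ferrochelatase, was at 0.05 (−0.86 to 0.96) in translation efficiency, or −0.17 with total counts, and ALAS1, the first enzyme of the pathway, at −0.27 (−1.28 to 0.73). In starved against fed cells ALAS1 was at 0.21 (−0.74 to 1.16) and FECH at 0.11 (−0.89 to 1.11). Of 26 cluster assembly genes 6 were measured by input reads, 3 by footprints and 2 by both, and the 1 called was GLRX5, a mitochondrial glutaredoxin, with input RNA at −1.22 (−2.14 to −0.44) in knockdown against control, beside 4.57% of all genes called lower. MMS19 and CIAO2B, both of the cytosolic targeting complex, were at 0.68 (−0.27 to 1.62) and 0.37 (−0.38 to 1.13) in translation efficiency there, and at 0.02 (−0.94 to 0.98) and 0.19 (−0.66 to 1.03) in starved against fed cells.

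**Figure D5:**
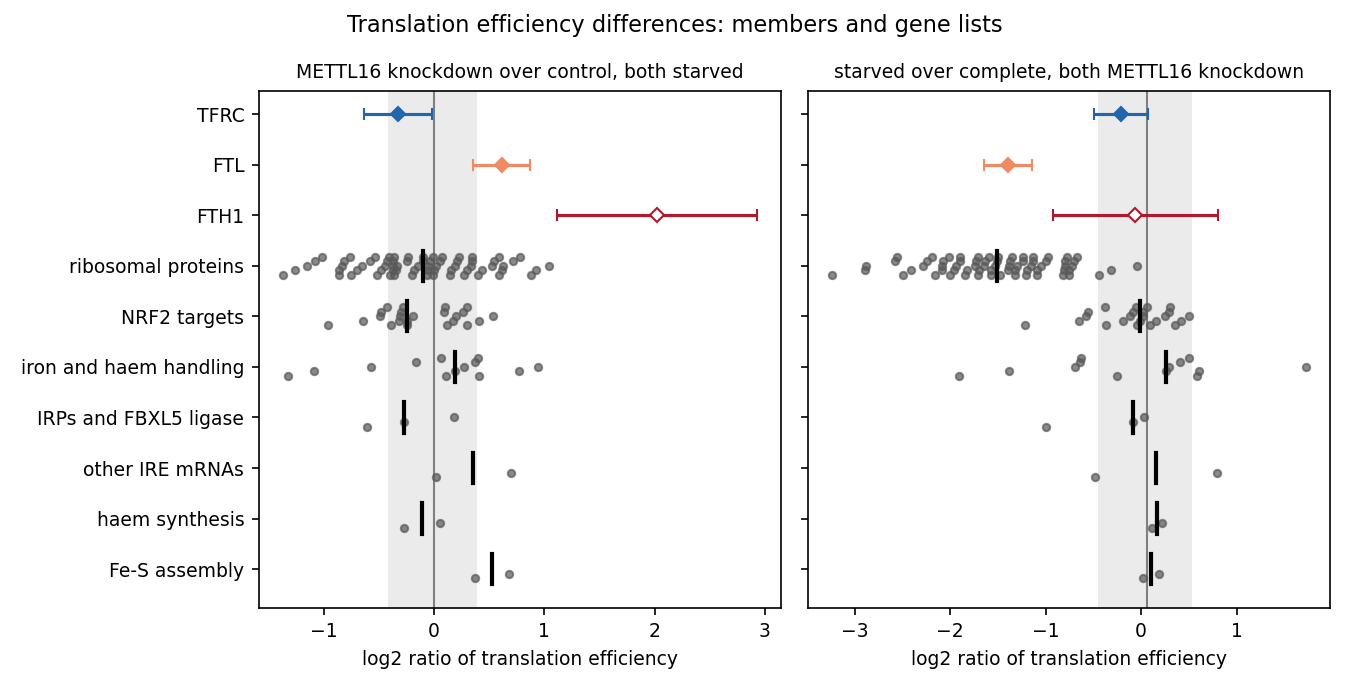
Log2 ratios of translation efficiency for FTH1, FTL and TFRC (diamonds with 95% counting intervals, open under the read minimum) and for the measured genes of each list (dots, with the list median as a bar) in both comparisons; the grey band spans the interquartile range of all genes. In the right panel FTL at −1.39 lies among the ribosomal proteins, whose median is −1.50, and left of the NRF2 targets, whose median is −0.02.

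The genes with the most similar profiles were found by the root-mean-square distance of log2 CPM, centred within each assay, over the 6 libraries. For FTL, among 690 candidates with a mean of at least 100 reads in each assay, these were SLC25A3, the mitochondrial phosphate carrier, at 0.14, GAPDH, a glycolytic enzyme, at 0.14, and RPL23, a ribosomal protein, at 0.15, beside a median candidate distance of 0.52. For TFRC they were the secreted or membrane proteins SEMA3C at 0.037, ALCAM at 0.058 and TFPI at 0.059, beside 0.33. For FTH1, among 691 candidates, they were the small heat shock protein HSPB1 at 0.27, ACTG1, a cytoplasmic actin, at 0.35 and the small GTPase RAB34 at 0.37, beside 0.61. FTH1 thus had no neighbour as close as those of FTL and TFRC, and its distance also holds the counting error of 18 to 22 footprint reads.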

How the data were processed

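The 6 libraries are input RNA and ribosome footprints of 3 conditions, 1 library each. Per the submitters' processing notes, the tools were STAR 2.7.5c, Bowtie2 2.2.5, featureCounts 2.0.1 and cutadapt 2.8, with the build GRCh38; strand and multiple-mapping settings are not given in the sources used here. The authors deposited raw counts per gene, TPM values (scaled to gene length and a common total) and a translation efficiency, the ratio of footprint to input TPM. Recomputed TPM equalled the deposited TPM within 5.27e-05%. A record broken over 3 lines was left out.

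TMM factors (edgeR 4.0.16, R 4.3.3) were made within each assay from genes with a mean of at least 30 reads, the same minimum that let a gene into counts of calls. Log2 ratios had a pseudocount of 0.5. The 95% intervals of RNA and footprint ratios are exact and binomial, conditional on the summed reads; those of translation efficiency use the Poisson variance of the counts. A call needed 2-fold and an interval excluding 0. No p-value was computed. Scripts were tested on simulated data.

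The members and gene lists were chosen with earlier results of these data known. Named iron-list genes are those called and the highest and lowest in translation efficiency; NCOA4 and, from the comparison lists, EPHX1 were chosen after their values were seen. Alternatives were other scalings, count minimums, pseudocounts, protein-coding genes only and another input library; adding pseudogene reads was planned for the ratios and added for the levels after seeing the data.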

Additional observations from a re-analysis of the deposited data

How the results depend on the processing

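No paired analysis was possible because each condition had 1 library per assay, and none was left out in turn. No member ratio that was called changed its direction, and FTL translation efficiency in starved against fed cells stayed called under median-of-ratios size factors, total counts and a pseudocount of 1. Median-of-ratios size factors, a pseudocount of 1 and protein-coding genes only left all the values they were applied to (30, 18 and 21) within the 95% interval of the value itself or, for counts of calls, within 1.5 times; genes called higher in footprints were 98 in place of 136 with protein-coding genes only (knockdown against control).

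With total counts, knockdown against control gave −0.64 for FTL input RNA, −0.26 for FTL footprints and −0.38 for TFRC footprints, and 57 genes called higher and 323 lower in footprints and 71 higher and 314 lower in translation efficiency; the median of all genes was then −0.08 (input RNA), −0.34 (footprints) and −0.23 (translation efficiency). With the input library of fed knockdown cells in place of that of starved knockdown cells, translation efficiency was 1.12 for FTL and −0.70 for TFRC in knockdown against control. In starved against fed cells it was −0.88 for FTL, no longer 2-fold, and −0.58 for TFRC, since the input cancels there and the footprint ratio is left.

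A count minimum of 10 tests more genes and gave, in knockdown against control, 572 higher and 507 lower by input reads, 413 and 343 by footprints, and 431 and 426 by translation efficiency; in starved against fed cells it gave 458 and 434, 521 and 497, and 509 and 573. The FTL level in fed cells was then −2.48. With no minimum the counts were 753 and 578, 690 and 383, and 670 and 542 in the first comparison and 678 and 484, 640 and 557, and 653 and 715 in the second. With pseudogene reads added, the FTH1 levels were −4.85, −3.25 and −3.07. Depth limits FTH1 most, with 18 to 22 footprint reads per library.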
